A study of Mus musculus with 12 samples.

Results

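The IL-36 family was followed in mouse ear skin as 6 genes: the agonists Il36a, Il36b and Il36g, the receptor antagonist Il36rn, and the receptor chains Il1rl2 and Il1rap. They were chosen by name, with the older symbols Il1f6, Il1f8, Il1f9 and Il1f5 for the 4 ligand genes, and are 6 of the 50684 genes in the count table. Female C57BL/6 mice, 8 weeks old, were injected intradermally in the ear pinna (5 µL), with treatment continued over 4 days before the ears were taken. The 4 groups were PBS, 1 µg IL-17A, 1 µg IL-36γ, and IL-17A + IL-36γ, for which the labels give 1 µg of each. All injections were made in PBS, none of the groups carries a genetic change, and no group without an injection was analysed here. RNA-Seq was made from 3 mice of each group, 12 libraries in all.

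IL-36α, IL-36β and IL-36γ are cytokines of the IL-1 family that bind the receptor chain encoded by Il1rl2. The bound receptor recruits the accessory chain encoded by Il1rap, which it shares with the receptors for IL-1 and IL-33, and signals through MyD88 to NF-κB and MAP kinases. The antagonist encoded by Il36rn occupies Il1rl2 without recruiting the accessory chain. In skin these ligands are made mainly by keratinocytes, and loss of the human antagonist causes a severe pustular form of psoriasis. The injected IL-36γ was a protein, so the reads of Il36g measure the transcript of the mouse itself.

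In the GRCm38 annotation (GENCODE) the 4 ligand genes lie next to each other on the plus strand of chromosome 2. Il36b (ENSMUSG00000026985) spans chr2:24153161-24160519, Il36g (ENSMUSG00000044103) chr2:24186476-24193568, Il36a (ENSMUSG00000026984) chr2:24215418-24225702 and Il36rn (ENSMUSG00000026983) chr2:24276954-24283426. Il1rl2 (ENSMUSG00000070942) spans chr1:40324610-40367562 and Il1rap (ENSMUSG00000022514) chr16:26581704-26730117, both on the plus strand. Reads were counted over exons of whole genes, so the membrane-bound and soluble forms of Il1rap cannot be told apart. No stretch of 76 bases, the read length, in a transcript of the 6 genes occurred in a transcript of another gene. The antisense gene Gm20319 overlaps 552 exon bases of Il1rap, and it held at most 2 counts in any library.

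The 250 bases before the RefSeq start site (GRCm38.p6, plus strand) are shown for the ligand genes that rose together and have an entry in the promoter table used here. Il36a has no entry. Capitals mark matches to TGANTCA, the AP-1 motif, or TTCNNNGAA, the STAT motif, searched on both strands.
Il36b, chr2:24152922-24153171: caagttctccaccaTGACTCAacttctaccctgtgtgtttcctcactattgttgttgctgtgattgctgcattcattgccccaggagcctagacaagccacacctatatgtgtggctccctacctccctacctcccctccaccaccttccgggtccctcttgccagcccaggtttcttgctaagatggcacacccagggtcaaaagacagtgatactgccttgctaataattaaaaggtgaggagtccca
Il36g, chr2:24186226-24186475: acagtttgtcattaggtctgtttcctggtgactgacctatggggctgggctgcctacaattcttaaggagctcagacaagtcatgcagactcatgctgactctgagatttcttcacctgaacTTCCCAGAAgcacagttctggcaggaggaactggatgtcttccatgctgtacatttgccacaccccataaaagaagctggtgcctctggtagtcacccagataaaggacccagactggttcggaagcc
Il36rn, chr2:24276704-24276953: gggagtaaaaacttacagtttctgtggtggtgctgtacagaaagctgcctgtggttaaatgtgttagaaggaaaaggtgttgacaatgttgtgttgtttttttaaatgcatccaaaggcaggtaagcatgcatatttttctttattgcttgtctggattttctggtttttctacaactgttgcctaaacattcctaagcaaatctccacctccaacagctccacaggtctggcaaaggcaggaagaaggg
The Il36b window held 1 AP-1 match, starting at base 15 of the window. In the Il36g window 1 STAT match started at base 123. The window of Il36rn shown here held no match, while that of its other start site (chr2:24277021-24277270), which lies inside the gene as annotated, held a STAT match at base 153. Neither receptor gene held a match, and the NF-κB motif was found in none of the windows. The letters of the NF-κB motif are not given here, so its absence holds only for the pattern searched. Of all 32851 promoter windows of the same length, 6.75% held the AP-1 motif, 7.02% the STAT motif and 5.93% the NF-κB motif. The ligand genes shown thus differed in the motifs of these windows.

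The total of counts was between 25293468 and 34759293 per library. All 6 genes passed the filter on low counts, with 203 to 14888 counts in a library, so that counting error alone was at most 7.02% of a value. Levels are given as CPM, the counts divided by library size after TMM scaling, and as mean ± SD of 3 mice. In the quasi-likelihood test of edgeR, fitted to 12 libraries and 19408 genes, a change was called when its adjusted p-value was under 0.05 and its log2 fold change exceeded 1 in size. The tissue was checked by markers. The summed CPM of 8 keratinocyte markers was 16940.5 to 22685 in PBS ears, 22806 to 24213 in IL-17A ears, 26389 to 34939 in IL-36γ ears and 32290 to 37926 in combination ears. PBS replicate 1 stood apart in skeletal muscle, with a summed CPM of 176 for 6 muscle markers against 1665 and 1990 in the other PBS libraries. The combination ears were low as well, at 181, 101 and 727, beside 1275 to 1690 in IL-17A ears and 606 to 1287 in IL-36γ ears, although no muscle marker was called against PBS. PBS replicate 2 stood apart in inflammatory transcripts, with 45.2 CPM of S100a9 against 5.26 and 3.36 in the other PBS libraries. The part of these differences in the changes of the 6 genes was not tested. In whole ear tissue more cells of a type and more RNA per cell cannot be told apart.

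Against PBS, all 3 agonists and the antagonist were called raised in both groups that received IL-36γ, while in IL-17A ears Il36a alone was. The receptor chains stayed below the fold threshold in all comparisons. The numbers called raised were 1 of 6 in IL-17A ears, where 0.897% of all genes were called raised, 4 of 6 in IL-36γ ears (5.01% of all genes) and 4 of 6 in combination ears (7.32% of all genes). None was called lowered, beside 1.03%, 1.98% and 5.82% of all genes. The median log2 fold change of the 6 genes was 0.12, 1.23 and 1.61 in these comparisons, beside 0.04, -0.02 and -0.03 for all genes tested. The 3 comparisons share the PBS mice. Without PBS replicate 1 the numbers called were 1, 4 and 4 as before, and they were the same genes. Without PBS replicate 2 they were 0, 3 and 4.

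Il36a, which encodes the agonist IL-36α, had the largest change of the family. It stood at 12.4, 9.99 and 6.15 CPM in the PBS libraries and at 27.4, 18.6 and 28.3 CPM in those of IL-17A. In IL-36γ ears it reached 87.6, 109 and 56.6 CPM, and in combination ears 163, 109 and 121 CPM. Every treated library lay above every PBS library, and both groups with IL-36γ lay above the IL-17A group, whereas IL-36γ and the combination overlapped narrowly. The group means were 9.53 ± 3.18, 24.8 ± 5.36, 84.3 ± 26.2 and 131 ± 28.8 CPM (SD, n = 3). Relative to PBS the log2 fold change was 1.37 (standard error, SE, 0.32, adjusted p = 0.0325) in IL-17A ears, 3.14 (SE 0.33, adjusted p = 0.00026) in IL-36γ ears and 3.78 (SE 0.34, adjusted p = 4.41e-05) in combination ears. These correspond to 2.59-fold, 8.83-fold and 13.7-fold higher levels. By absolute log2 fold change Il36a ranked at 106 of 19408 genes in IL-36γ ears and at 132 in combination ears.

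The call of Il36a in IL-17A ears depended on single libraries. Over 20 alternatives its log2 fold change ranged from 1.13 to 1.62 and its adjusted p-value from 0.00127 to 0.14, and the call was lost in 8 of them. It was lost without PBS replicate 2 (adjusted p = 0.104), PBS replicate 3 (adjusted p = 0.128), IL-17A replicate 1 (adjusted p = 0.14), IL-17A replicate 3 (adjusted p = 0.072), IL-36γ replicate 1 (adjusted p = 0.0508) and IL-17A + IL-36γ replicate 2 (adjusted p = 0.0501), each in the edgeR test, and with no filter on low counts or only the groups compared in the fit. Its calls in IL-36γ ears and in combination ears were made under all 20 alternatives.

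**Figure D1:**
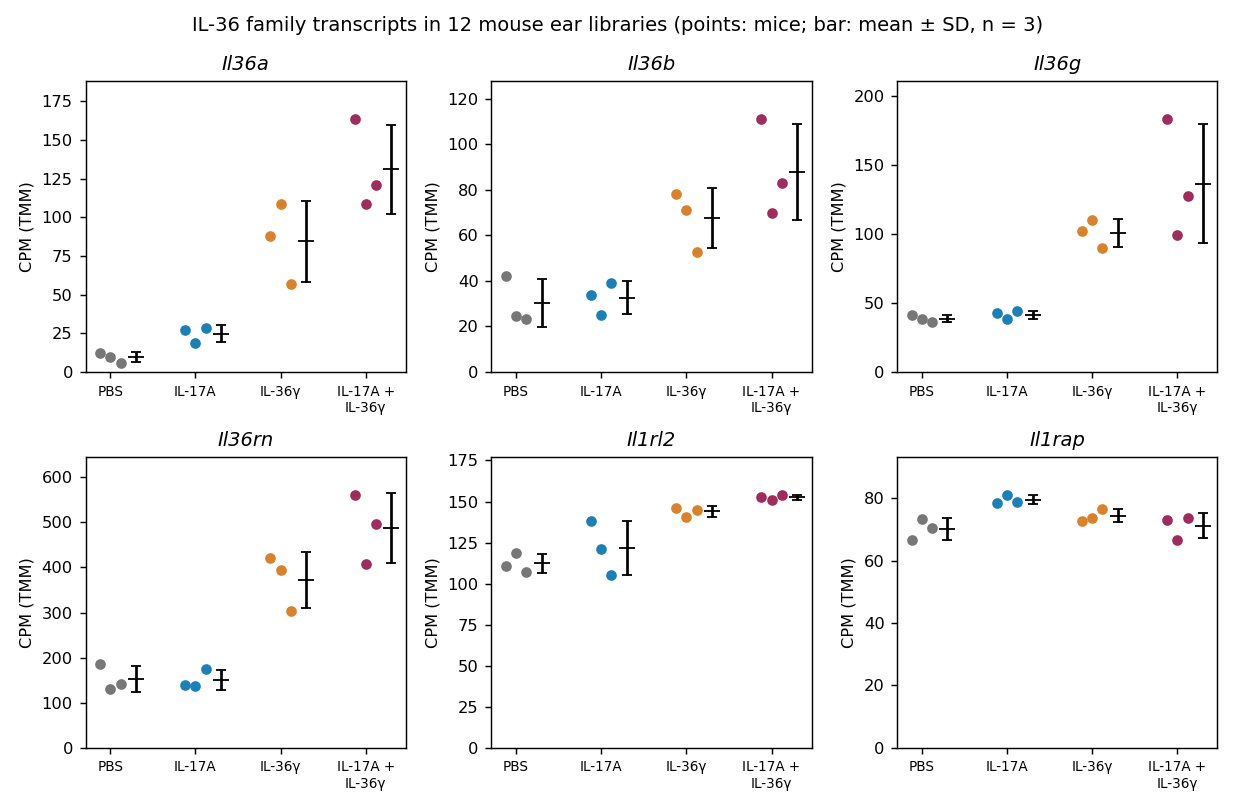
CPM after TMM scaling of the 6 genes in each of the 12 libraries, with the scale of each panel starting at 0. Points are mice and bars the mean ± SD of 3 mice. The ligand genes lie higher in the groups with IL-36γ, Il1rl2 is 1.28-fold and 1.36-fold above PBS there, and Il1rap stays between 66.6 and 81.2 CPM throughout.

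Il36b encodes the agonist IL-36β and had the smallest fold change of the agonists in both groups with IL-36γ. Its levels were 42.3, 24.8 and 23.3 CPM in PBS ears, 33.9, 25.1 and 39.2 CPM in IL-17A ears, 78.3, 71.3 and 52.8 CPM in IL-36γ ears, and 111, 69.9 and 83.1 CPM in combination ears. PBS replicate 1, the library low in muscle transcripts, was the highest of its group. The groups with IL-36γ lay above all libraries without it, and PBS and IL-17A overlapped. The log2 fold change was 1.16 (SE 0.28, adjusted p = 0.0131) in IL-36γ ears and 1.55 (SE 0.28, adjusted p = 0.00169) in combination ears. In IL-17A ears it was 0.12, with a 95% confidence interval of -0.50 to 0.74. The call in IL-36γ ears was lost without PBS replicate 2 (adjusted p = 0.0569), PBS replicate 3 (adjusted p = 0.0554) or IL-36γ replicate 1 (adjusted p = 0.052). Without PBS replicate 1 the log2 fold change of Il36b in IL-36γ ears was 1.49.

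For Il36g, the gene of the injected cytokine, the transcript was even between mice in PBS ears (41.2, 38.8 and 36.3 CPM) and in IL-17A ears (42.5, 38.3 and 43.9 CPM). It reached 102, 110 and 90.1 CPM with IL-36γ, and 183, 99.0 and 127 CPM with both cytokines. Again the groups divided by the presence of IL-36γ, and the combination had the widest spread, with an SD of 42.9 CPM around a mean of 137 CPM. Il36g was raised in IL-36γ ears by 1.38 on the log2 scale (SE 0.18, adjusted p = 0.000411), or 2.60-fold, and in combination ears by 1.82 (SE 0.18, adjusted p = 3.4e-05), or 3.52-fold. For IL-17A the value was 0.10, with an interval of -0.29 to 0.49, so that a doubling of Il36g by IL-17A alone lay outside the interval.

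The antagonist Il36rn was the member with the most counts. It measured 186, 131 and 141 CPM in PBS ears and 139, 136 and 175 CPM in IL-17A ears, and these groups overlapped. In IL-36γ ears the values were 422, 394 and 302 CPM and in combination ears 562, 407 and 498 CPM, all above the other groups. Il36rn was raised by 1.29 on the log2 scale (SE 0.17, adjusted p = 0.000435) in IL-36γ ears and by 1.68 (SE 0.17, adjusted p = 3.66e-05) in combination ears. With IL-17A alone the difference was -0.02, with an interval of -0.39 to 0.35. The calls of Il36g and Il36rn in both groups with IL-36γ were made under all 20 alternatives.

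Il1rl2, the chain that binds the ligands, differed little in size but clearly relative to its spread. Its levels were 111, 119 and 107 CPM in PBS ears, 138, 121 and 105 CPM in IL-17A ears, 146, 140 and 145 CPM in IL-36γ ears, and 153, 151 and 154 CPM in combination ears. All libraries with IL-36γ lay above all without it, and the combination had the smallest relative spread of any group among the 6 genes, with an SD of 1.08% of its mean. The log2 fold change of 0.36 in IL-36γ ears (SE 0.08, adjusted p = 0.00831) and of 0.44 in combination ears (SE 0.08, adjusted p = 0.00117) passed on the adjusted p-value and not on size. An adjusted p-value below 0.05 with a positive change was common, at 17.3% of all genes in IL-36γ ears and 23.7% in combination ears. When libraries were scaled by their size only, the value in IL-36γ ears fell to 0.21 (adjusted p = 0.0608).

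Il1rap, the shared accessory chain, stayed within a narrow range. The libraries read 66.7, 73.5 and 70.5 CPM in PBS ears, 78.6, 81.2 and 78.8 CPM in IL-17A ears, 72.8, 73.6 and 76.7 CPM in IL-36γ ears, and 73.1, 66.6 and 73.9 CPM in combination ears. The IL-17A libraries were the highest of the 12, and the other groups overlapped with each other. Against PBS the log2 fold change was 0.18 in IL-17A ears (adjusted p = 0.0802), 0.08 in IL-36γ ears with an interval of -0.05 to 0.22, and 0.02 in combination ears with an interval of -0.12 to 0.16. Counting by overlap alone, 2 of the 6 genes (Il36a and Il1rap) lay apart from and above PBS in IL-17A ears, which held for 19.6% of all genes. The number was 5 of 6 in IL-36γ ears (22.4% of all genes) and 5 of 6 in combination ears (27% of all genes), all but Il1rap.

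**Figure D2:**
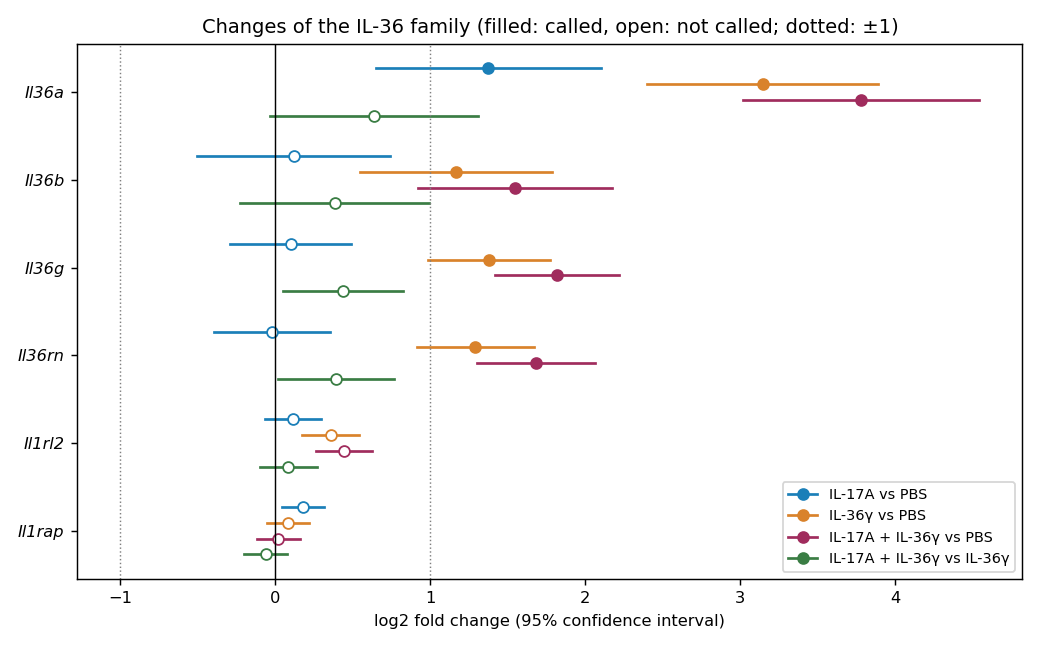
Log2 fold changes (x axis) of the 6 genes (y axis) in 4 comparisons, with 95% confidence intervals from the edgeR fit. Filled points were called, open points were not, and dotted lines mark a log2 fold change of 1 in either direction. The combination against IL-36γ alone, in green, has no filled point.

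The effect of adding one cytokine to the other was read from the direct comparisons. Adding IL-36γ to IL-17A raised the 4 ligand genes (4 of 6, beside 4.4% of all genes called raised), with log2 fold changes of 2.41 (adjusted p = 0.000753) for Il36a, 1.43 (adjusted p = 0.00437) for Il36b, 1.72 (adjusted p = 0.000159) for Il36g and 1.70 (adjusted p = 0.000125) for Il36rn. Il1rl2 differed by 0.33 (adjusted p = 0.0108), below the fold threshold. Il1rap was lower in all 3 libraries of the combination than in the IL-17A libraries, with a log2 fold change of -0.16 (adjusted p = 0.0711). It was the only member lying below, as 25.4% of all genes did.

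Adding IL-17A to IL-36γ gave 0 calls among the 6 genes in the edgeR test, and DESeq2 gave 0 as well. In this comparison 0.0103% of all genes were called. An unadjusted p-value below 0.05 was found for 2 members, Il36g and Il36rn, beside 2857 of the 19408 genes tested. The mean was higher with IL-17A for all 4 ligand genes, with log2 fold changes of 0.64 for Il36a (interval -0.04 to 1.31, adjusted p = 0.365), 0.38 for Il36b (interval -0.23 to 0.99, adjusted p = 0.539), 0.44 for Il36g (interval 0.05 to 0.82, adjusted p = 0.284) and 0.39 for Il36rn (interval 0.02 to 0.76, adjusted p = 0.317). Their libraries overlapped between the groups. Il1rl2 was the only gene of the 6 whose libraries in the combination lay above those of IL-36γ (9.33% of all genes did), by a log2 value of 0.08 (adjusted p = 0.673).

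Set directly against each other, IL-36γ gave higher levels than IL-17A of Il36a (log2 fold change 1.77, adjusted p = 0.0135), Il36g (1.28, adjusted p = 0.00359) and Il36rn (1.31, adjusted p = 0.00288). These were 3 of 6 called raised, beside 1.11% of all genes. Il36b had a log2 fold change of 1.05 and an adjusted p-value of 0.0503, and it was called under 8 of 20 alternatives. The call of Il36a was lost without IL-17A replicate 2 (adjusted p = 0.0658) or without IL-36γ replicate 2 (adjusted p = 0.0566).

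Whether the effect of IL-17A differed with and without IL-36γ was tested as an interaction on the log2 scale. None of the 6 genes passed an adjusted p-value of 0.05 in edgeR (0 of 6, beside 0.773% of all genes). Of the 6, 1 (Il1rap) had an unadjusted p-value below 0.05, beside 4298 of the 19408 genes tested. DESeq2 called Il1rap. The interaction was -0.74 (adjusted p = 0.348) for Il36a and -0.24 (adjusted p = 0.145) for Il1rap. For Il36b, Il36g and Il36rn it was 0.27, 0.34 and 0.41 (adjusted p = 0.721, 0.445 and 0.332), and for Il1rl2 -0.03 (adjusted p = 0.909). In DESeq2 the value for Il1rap was -0.22 (adjusted p = 0.0136), in a fit that called 2557 genes for the interaction, beside 150 genes in edgeR. On the scale of CPM, the combination exceeded the sum of both single increments by 118 ± 61.3 CPM for Il36rn, 32.9 ± 25.6 CPM for Il36g, 31.5 ± 22.8 CPM for Il36a and 17.9 ± 16.1 CPM for Il36b (standard error, from the 4 group variances). It fell by 12.5 ± 3.39 CPM below that sum for Il1rap. These sums were not tested.

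Levels were compared between genes as CPM per kilobase of exon, which divides by the 883 exon bases of Il36a, 1217 of Il36b, 1648 of Il36g, 4493 of Il36rn, 6812 of Il1rl2 and 11360 of Il1rap. In PBS ears the order was Il36rn (33.9 ± 6.58), Il36b (24.7 ± 8.67), Il36g (23.5 ± 1.47), Il1rl2 (16.5 ± 0.868), Il36a (10.8 ± 3.60) and Il1rap (6.18 ± 0.303 CPM per kilobase). The libraries of Il36rn overlapped those of Il36b, and those of Il36b overlapped those of Il36g, while each later gene lay apart from the one before it. In combination ears Il36a stood first (148 ± 32.6), followed by Il36rn (109 ± 17.3), Il36g (82.8 ± 26.05), Il36b (72.3 ± 17.3), Il1rl2 (22.4 ± 0.241) and Il1rap (6.27 ± 0.353 CPM per kilobase). Neighbours among the 4 ligand genes overlapped there, and the receptor chains lay below them. The place of Il36rn depends on its exon length, which joins 7 annotated transcripts.

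The make-up of the agonist pool moved towards Il36a. Its share of the summed length-corrected agonist level was 19.1%, 20.5% and 14.5% in the PBS libraries and 36.6%, 32.5% and 35.3% in those of IL-17A. It was 43.96%, 49.5% and 39.5% in IL-36γ ears and 47.8%, 51.2% and 48.5% in combination ears. All treated libraries lay above PBS, and the combination overlapped with IL-36γ. The mean share of Il36b went from 41.2 ± 5.23% in PBS ears to 23.9 ± 0.308% in combination ears, and that of Il36g from 40.8 ± 6.19% to 27.0 ± 1.88%.

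The summed agonists relative to Il36rn, both per kilobase, were 1.78, 1.90 and 1.54 in PBS ears, 2.73, 2.14 and 2.33 in IL-17A ears, 2.40, 2.84 and 2.41 in IL-36γ ears, and 3.10, 2.66 and 2.55 in combination ears. Each treated library had a higher ratio than each PBS library, and the treated groups overlapped. With counts not divided by length the group means were 0.515, 0.661, 0.678 and 0.721, so that the order of the groups stayed and the ratio lay below 1. Transcript of Il1rap per transcript of Il1rl2 was 0.375 ± 0.0171 in PBS ears, 0.397 ± 0.0535 in IL-17A ears, 0.310 ± 0.0102 in IL-36γ ears and 0.280 ± 0.0130 in combination ears. These ratios are descriptions and were not tested.

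**Figure D3:**
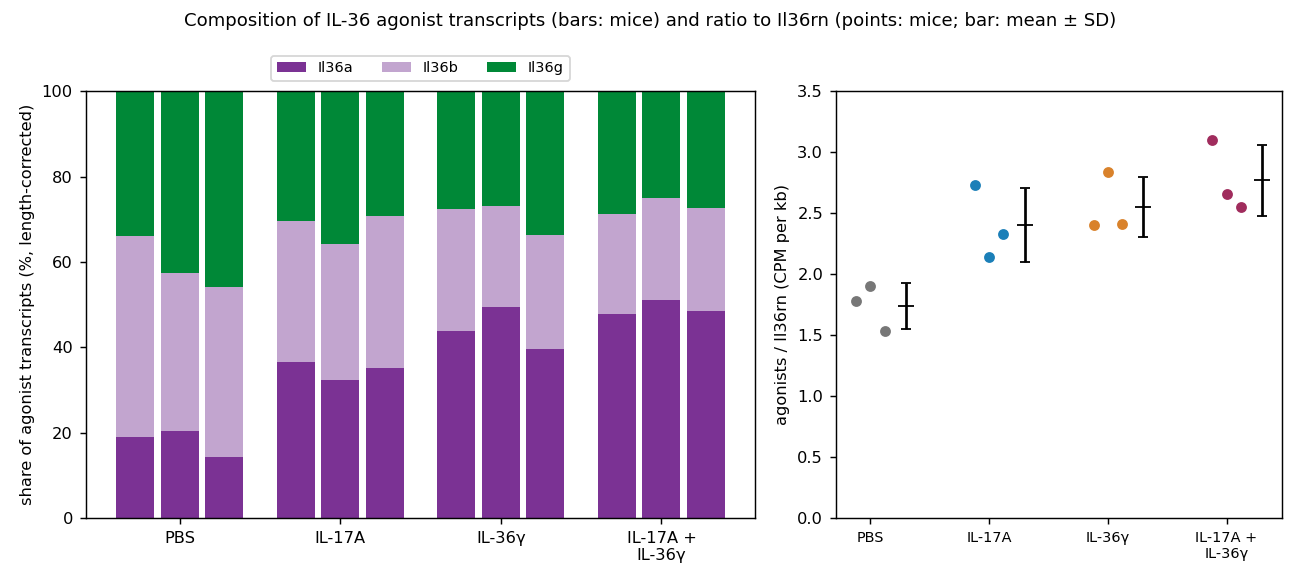
Left, share of Il36a, Il36b and Il36g in the summed agonist transcripts (CPM per kilobase, in percent), 1 bar per mouse. Right, summed agonists divided by Il36rn, with points for mice and bars for the mean ± SD of 3 mice. Il36a makes up 14.5% to 20.5% of the agonists in PBS ears and 47.8% to 51.2% in combination ears.

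Within groups, mice with more of one ligand transcript also had more of the others. After subtracting group means from log2 CPM, the Pearson correlation over the 12 libraries was 0.92 for Il36b and Il36rn, 0.86 for Il36a and Il36b, and between 0.69 and 0.73 for the other 4 pairs of ligand genes. With Il1rl2 the ligand genes had values of -0.38 to 0.03, and with Il1rap of -0.32 to 0.29. The genes of a pair are read in the same libraries with the same scaling, and the values are descriptions.

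The genes whose log2 CPM followed each member most closely over the 12 libraries, group differences included, were Nubp1, Pkm and Chil1 for Il36a (Pearson r 0.99 each), and Capn12, Otub2 and Slc34a2 for Il36b (r 0.99, 0.99 and 0.99). Il36g was closest to Rfc2, Tyro3 and Supt6 (r 0.98 each) and Il36rn to Sdr9c7, Ephx3 and Otub2 (r 0.99 each). Otub2, which encodes a deubiquitinase, was thus near both Il36b and Il36rn. For Il1rl2 the nearest genes were Tmprss11g (r 0.98), Ethe1 and Mpi (r 0.96 each), and for Il1rap they were Nudt4 (r 0.89), Trak2 and Snord73a (r 0.88 each).

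The neighbours of the ligand genes on chromosome 2 did not all move with them. Il1f10, which encodes IL-38, another cytokine of the IL-1 family, lies between Il36rn and the IL-1 receptor antagonist gene Il1rn. It stood at 10.2 ± 0.454 CPM in PBS ears, 7.20 ± 2.32 CPM in IL-17A ears, 4.54 ± 1.35 CPM in IL-36γ ears and 2.45 ± 0.796 CPM in combination ears. It was called lowered in IL-36γ ears (log2 fold change -1.17, adjusted p = 0.0112) and in combination ears (-2.05, adjusted p = 0.000275). Il1rn, named here after its values were seen, was called raised in the same comparisons (1.03, adjusted p = 2.02e-05, and 1.22, adjusted p = 2.71e-06).

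Il1b, the gene of IL-1β, lies on chromosome 2 far from the ligand genes, at chr2:129364570-129371139. It was called raised in the combination only (log2 fold change 3.72, adjusted p = 0.0207), with 2.42 (adjusted p = 0.152) in IL-17A ears and 2.37 (adjusted p = 0.116) in IL-36γ ears. Its libraries were at 1.60, 12.4 and 1.12 CPM in PBS ears, 60.2, 11.5 and 9.93 CPM in IL-17A ears, 18.6, 41.6 and 18.1 CPM in IL-36γ ears, and 95.3, 45.3 and 59.99 CPM in combination ears. PBS replicate 2 and IL-17A replicate 1 were the high libraries of their groups. Without PBS replicate 2 the change was 4.25 in IL-36γ ears, which was then called (adjusted p = 0.037), and 5.61 in the combination. The call in the combination was lost without PBS replicate 1 (adjusted p = 0.0552), PBS replicate 3 (adjusted p = 0.066) or IL-17A + IL-36γ replicate 1 (adjusted p = 0.0549). The difference between these effects was not tested. On chromosome 1, Il1rl2 lies between Il1r1 and Il1rl1. Neither of these neighbours was called, while Il18rap, the accessory chain of the IL-18 receptor, rose from 3.30 ± 1.29 CPM in PBS ears to 13.0 ± 4.90 CPM in IL-36γ ears (log2 fold change 1.97, adjusted p = 0.00676) and 28.3 ± 10.1 CPM in combination ears (3.10, adjusted p = 0.000313). A list of 9 tested genes held these neighbours, and also Il1b and Il1a (chr2:129299610-129309972), which lie outside the ligand cluster. Of the 9, 0 were called raised or lowered in IL-17A ears, and 2 were raised and 1 lowered in IL-36γ ears. In combination ears 3 were raised, Il1b among them, and 1 was lowered. Over all genes the shares were 0.897%, 5.01% and 7.32% raised and 1.03%, 1.98% and 5.82% lowered.

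**Figure D4:**
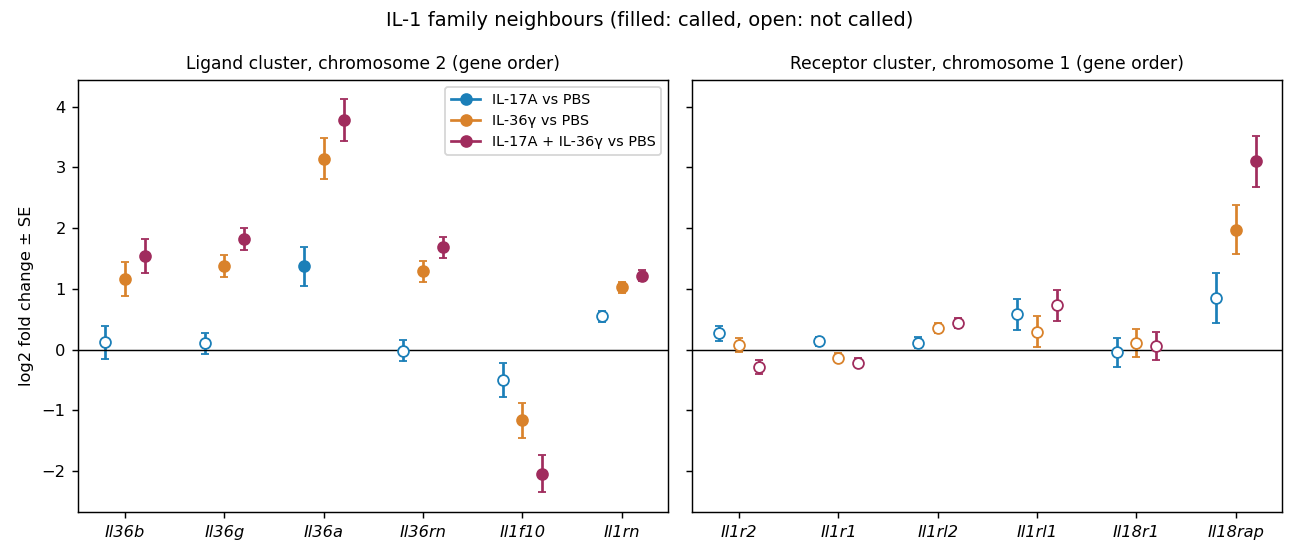
Log2 fold change ± SE against PBS (y axis) of genes in their order along the ligand cluster on chromosome 2 and the receptor cluster on chromosome 1. Filled points were called and open points were not. Il1f10 lies between raised genes and has log2 fold changes of -1.17 in IL-36γ ears and -2.05 in combination ears.

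Among 23 genes of IL-36 receptor signalling, such as adaptors, kinases and NF-κB regulators, 0 were called raised in IL-17A ears, 2 in IL-36γ ears and 2 in combination ears. None was called lowered. The shares of all genes were 0.897%, 5.01% and 7.32% raised and 1.03%, 1.98% and 5.82% lowered. The 2 of 23 in combination ears lay close to the share of all genes. The median log2 fold change was 0.07, 0.23 and 0.29, beside 0.04, -0.02 and -0.03 for all genes. The called genes were the same in both groups. Nfkbiz, which encodes the nuclear cofactor IκBζ, went from 39.4 ± 4.54 CPM in PBS ears to 80.9 ± 5.19 CPM in IL-36γ ears (log2 fold change 1.04, adjusted p = 6.93e-05) and 90.7 ± 4.88 CPM in combination ears (1.20, adjusted p = 1.28e-05). Tnfaip3, the gene of the NF-κB inhibitor A20, changed by 1.53 (adjusted p = 0.0138) in IL-36γ ears and by 1.07 (adjusted p = 0.0372) in combination ears. Its call in IL-36γ ears was lost without PBS replicate 3 (adjusted p = 0.0524). That in combination ears was lost in 5 of 12 fits with a library left out, and the lowest log2 fold change was 0.61, without IL-17A + IL-36γ replicate 3. Without PBS replicate 1, PBS replicate 3 or IL-36γ replicate 2 Nfkbiz fell just below the fold threshold in IL-36γ ears (0.986 to 0.999).

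IL-36 cytokines are secreted as precursors and gain activity when proteases trim their N-terminus. Of 7 genes of such proteases and their inhibitors, 5 were tested. Elane, the gene of neutrophil elastase, had at most 1 count and Prtn3, the gene of proteinase 3, at most 8 counts in a library. The counts in this paragraph are of transcripts, and the amount of protease protein in the ears was not measured. Ctss, the gene of cathepsin S, was called raised in IL-36γ ears (log2 fold change 1.29, adjusted p = 0.00129) and the combination (1.33, adjusted p = 0.000439). Slpi, which encodes an inhibitor of neutrophil serine proteases, rose from 4.21 ± 1.35 CPM in PBS ears to 25.7 ± 9.86 CPM in IL-36γ ears (2.60, adjusted p = 0.0122) and 51.5 ± 29.8 CPM in combination ears (3.60, adjusted p = 0.00148). Ctsg, the gene of cathepsin G, was called lowered in the combination (-1.11, adjusted p = 0.0302), at 1.03 ± 0.328 CPM against 2.21 ± 1.22 CPM in PBS ears. PBS replicate 1, at 3.62 CPM against 1.56 and 1.45 CPM, carried that mean, and without it the log2 fold change was -0.55 (adjusted p = 0.151). The call was also lost without IL-17A + IL-36γ replicate 2 (adjusted p = 0.107) or replicate 3 (adjusted p = 0.0553). In IL-17A ears 0 of the 5 genes were called, beside 0.897% of all genes called raised and 1.03% lowered. Over all genes 5.01% were called raised and 1.98% lowered in IL-36γ ears, and 7.32% and 5.82% in combination ears.

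Of 6 tested receptor chains related to Il1rl2 and Il1rap, Il18rap was called raised in both groups with IL-36γ, beside 5.01% and 7.32% of all genes. Il1rapl1 was called lowered in the combination (log2 fold change -1.56, adjusted p = 0.0236), beside 5.82% of all genes called lowered. Its level there was low, at 0.259 ± 0.203 CPM (libraries 0.039, 0.44 and 0.30 CPM) against 0.787 ± 0.157 CPM in PBS ears. The call was lost without PBS replicate 2, PBS replicate 3 or IL-17A + IL-36γ replicate 1 (adjusted p = 0.0676, 0.0631 and 0.0701).

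Genes known as targets of IL-36 in skin, 23 in all with 19 tested, were called raised in 5 cases in IL-17A ears, 10 in IL-36γ ears and 14 in combination ears, and 0 were called lowered. Over all genes 0.897%, 5.01% and 7.32% were called raised and 1.03%, 1.98% and 5.82% lowered. This list, like the others named here, was chosen with earlier results of these data known. Its counts are descriptions and not a test of the list. The median log2 fold change of these targets was 1.84, 2.57 and 3.23, beside 0.04, -0.02 and -0.03 for all genes tested. The 3 most changed in the combination were S100a9 (8.11, adjusted p = 0.000661) and S100a8 (8.07, adjusted p = 0.00062), which encode the subunits of calprotectin, and the defensin gene Defb4 (7.70, adjusted p = 0.000574). S100a9 rose from 17.9 ± 23.6 CPM in PBS ears to 350.1 ± 126 CPM in IL-17A ears, 1993 ± 767 CPM in IL-36γ ears and 4971 ± 960 CPM in combination ears. PBS replicate 2 carried the PBS mean, and without it the log2 fold change of S100a9 was 10.2 in the combination and that of S100a8 10.1. For S100a9 the call in IL-17A ears was lost in 5 of 12 fits with a library left out (adjusted p up to 0.12). Several of these genes are also made by neutrophils.

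Markers of some cell types differed between the groups, while no fibroblast or endothelium marker was called in combination ears against PBS. The summed CPM of 7 neutrophil markers was 14.99 to 25.6 in PBS ears, 29.5 to 72.8 in IL-17A ears, 64.9 to 98.1 in IL-36γ ears and 112 to 225 in combination ears. Of the 7, 3, 5 and 7 were called raised, beside 0.897%, 5.01% and 7.32% of all genes. Of 8 keratinocyte markers, 1 was raised in IL-17A ears, 1 in IL-36γ ears and 2 in combination ears, beside the same shares. In combination ears 1 was lowered, Krt15 (log2 fold change -1.18, adjusted p = 6.65e-05), beside 5.82% of all genes. Krt1, a keratin of suprabasal cells, rose most (log2 fold change 1.56, 3.13 and 4.21). Its call in IL-17A ears was lost in 9 of 12 fits with a library left out (adjusted p up to 0.187). For 5 activated keratinocyte markers the sum was 328 to 535 CPM in PBS ears and 591 to 2320 CPM in IL-17A ears. It was 2126 to 5608 CPM in IL-36γ ears and 6404 to 10818.5 CPM in combination ears. The sum of 6 macrophage markers was 482 to 557 CPM in PBS ears and 719 to 1001 CPM in IL-17A ears. That sum was 1136 to 1248 CPM in IL-36γ ears and 1031 to 1130 CPM in combination ears. The summed level of the dendritic and Langerhans cell list, 128 to 179 CPM over all libraries, came mostly from Epcam, which epithelial cells also make. Without Epcam the other 6 genes summed to 38.9 to 61.7 CPM in PBS ears, 51.7 to 56.5 CPM in IL-17A ears, 30.4 to 41.3 CPM in IL-36γ ears and 25.7 to 30.3 CPM in combination ears. Cd207, the defining Langerhans cell marker, was called lowered in IL-36γ ears (-2.05, adjusted p = 0.00135) and in combination ears (-3.28, adjusted p = 6.43e-05). Most of the fall in that sum lay in Cd207. It was at 14.4 to 24.1 CPM in PBS ears, 2.47 to 6.57 CPM in IL-36γ ears and 1.43 to 2.77 CPM in combination ears. No other gene of the list was called against PBS. Their log2 fold changes ran from -0.32 to 0.60 in IL-36γ ears and from -0.70 to 0.09 in combination ears. The part of these shifts in the changes of the IL-36 genes was not tested.

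Per 1000 CPM of the keratinocyte markers, Il36a stood at 0.50 ± 0.121 CPM in PBS ears, 1.04 ± 0.196 CPM in IL-17A ears, 2.70 ± 0.665 CPM in IL-36γ ears and 3.69 ± 0.651 CPM in combination ears. In IL-17A ears the other ligand genes were lower in the mean than in PBS ears, with 6.33 ± 0.812 against 8.07 ± 0.314 for Il36rn, 1.75 ± 0.0696 against 2.08 ± 0.242 for Il36g and 1.38 ± 0.263 against 1.57 ± 0.262 for Il36b. All IL-17A libraries lay below all PBS libraries for Il36rn (5.75 to 7.26 against 7.71 to 8.29). On the same scale Il36g went from 2.08 ± 0.242 in PBS ears to 3.27 ± 0.297 in IL-36γ ears and 3.84 ± 1.05 in combination ears, and Il36rn from 8.07 ± 0.314 to 12.0 ± 0.493 and 13.8 ± 2.23. Il36b had 1.57 ± 0.262 in PBS ears, 2.17 ± 0.141 in IL-36γ ears and 2.48 ± 0.503 in combination ears. The receptor chains took the other direction, from 6.07 ± 1.08 in PBS ears to 4.33 ± 0.393 in combination ears for Il1rl2 and from 3.81 ± 0.760 to 2.02 ± 0.235 for Il1rap. The 4 ligand genes were thus higher than in PBS ears on this scale too in all libraries of both groups with IL-36γ, and the receptor chains were lower in the mean. No test was made on this scale, whose denominator includes Krt1 and other keratins. That denominator was 16940.5 to 22685 CPM in PBS ears, 22806 to 24213 CPM in IL-17A ears and 32290 to 37926 CPM in combination ears. In CPM itself Il1rl2 was 1.36-fold above PBS in combination ears. A lower value on this scale is thus not a lower level of the transcript.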

How the data were processed

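Ear RNA was sequenced as stranded total RNA after removal of ribosomal RNA. The authors used STAR 2.5.2b for alignment to mm10 and featureCounts of Subread 1.5.1 for counting by Ensembl gene, with a strand setting not given in the sources used here. The deposited table holds raw counts. The authors' tables of comparisons, which hold log2 fold changes, p-values and adjusted p-values from DESeq2 1.30.0, were not used.

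Groups came from the sample labels, and the 3 replicates of a group are separate mice. Genes were named and placed with GENCODE vM21 of GRCm38, the build of mm10. In R 4.3.3, edgeR 4.0.16 was run with filterByExpr (minimum count 10), TMM, 1 mean per group and the robust quasi-likelihood test, with Benjamini-Hochberg adjustment over 19408 genes. The script was tested on simulated data. DESeq2 1.42.0 with a likelihood ratio test was an alternative, as were other scalings and filters, a fit of only those groups that were compared, calls without a limit on fold change, a block for the replicate number, and each library left out in turn. The genes, lists and markers were chosen with earlier results of these data known. Named beside the 6 genes are the 3 genes closest to each by Pearson r (log2 CPM, prior count 2), and up to 3 called genes of each list with the largest change in the combination. Il1rn, Il1a, Elane, Prtn3, Krt1, Krt15 and Cd207 are not covered by it and were picked once their values were known. Lists of other IL-1 ligands, activated keratinocytes, fibroblasts, macrophages, T cells and endothelium were also examined. These lists held 6, 5, 6, 6, 6 and 4 genes. In the combination against PBS they had 2, 4, 0, 4, 2 and 0 genes called raised and 1, 0, 0, 0, 0 and 0 called lowered, and the 6 muscle markers 0 and 0. Over all genes 7.32% were called raised and 5.82% lowered in this comparison.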

Additional observations from a re-analysis of the deposited data

How the results depend on the processing

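The number of IL-36 family genes called kept within 1.5 times its value under all alternatives in the comparisons of IL-36γ and of the combination with PBS, of the combination with each cytokine alone and of IL-36γ with IL-17A. In IL-17A ears it was 0 in place of 1 with no filter on low counts (Il36a, adjusted p = 0.0695) and with only the groups compared in the fit (adjusted p = 0.0696). With libraries left out in turn it ranged from 0 to 1. Such ranges were 3 to 4 for IL-36γ against PBS, 2 to 4 for IL-36γ against IL-17A, 4 to 4 for the combination against PBS or IL-17A, and 0 to 0 for the combination against IL-36γ and for the interaction. DESeq2 gave 1 gene, Il1rap, in the interaction, beside 2557 over all genes. The cause of these shifts was not tested.

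Changes of sign concerned values near 0 that were not called. Scaling by library size only moved the median log2 value over all genes to -0.13 in IL-17A ears, -0.16 in IL-36γ ears and -0.17 in combination ears against PBS. With it, Il36b, Il36g and Il1rl2 were at -0.043, -0.071 and -0.061 in IL-17A ears, Il1rap at -0.068 in IL-36γ ears and -0.13 in combination ears, and the interaction of Il1rl2 at 0.15. With no filter Il1rap was at -0.014 in combination ears. With libraries left out in turn, the values in IL-17A ears ranged from -0.044 to 0.45 for Il36b, from -0.14 to 0.15 for Il36rn and from -0.020 to 0.21 for Il1rl2, and that of Il1rap in combination ears from -0.015 to 0.059. The interaction ranged from -0.063 to 0.45 for Il36b and from -0.13 to 0.11 for Il1rl2.

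Of 18 pairs of libraries with the same replicate number, 9 had a correlation above 0.1 (range -0.20 to 0.35), and the sources used here name no litter, batch or day shared by a number. Since not every pair was above 0.1, the fit without the block was kept, although 8 of 12 libraries correlated best with their own number, a hint of pairing from the data. With the replicate number as a block Il36b was called in IL-36γ against IL-17A (log2 fold change 1.04, adjusted p = 0.0238), which gave 4 called genes, and no other call of the 6 genes changed.

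Over all genes the backgrounds moved more than the family. In IL-17A ears 373 genes were called, 13 with only the groups compared, 569 with library size only and 725 in DESeq2, and from 13 (without PBS replicate 3) to 865 (without PBS replicate 1) with a library left out. The interaction had 150 genes, 94 with DESeq2-type size factors, 1 with library size only, 400 with no filter, 978 under the block and 2557 in DESeq2, and from 1 (without IL-36γ replicate 1) to 1746 (without PBS replicate 1). For the combination against IL-36γ these were 2 genes, 25 with no filter, 128 in DESeq2 and 0 to 81 with a library left out. IL-36γ against IL-17A had 275 genes, 433 in DESeq2 and 64 to 347 with a library left out. Without the fold change threshold the counts were 2112, 5516 and 8580 for the 3 comparisons with PBS, 6242 for the combination against IL-17A, 6 against IL-36γ and 1487 for IL-36γ against IL-17A.

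For part of the other named genes, Krt15 not among them, each library was left out in turn in the comparisons with PBS. This alternative was chosen after seeing the data, as was the dendritic cell list without Epcam. In IL-17A ears Ctsg ranged from -0.59 to 0.21 and Cd207 from -0.14 to 0.20, and neither was called. In IL-36γ ears Il1f10 was not called without IL-36γ replicate 2 (-0.93), Slpi without PBS replicate 3 (adjusted p = 0.0564), and Il1rn in 3 of 12 fits (0.946 to 0.993).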
